A study of Mus musculus with 12 samples.

Results

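The genes of the activator protein 1 (AP-1) transcription factors were examined in a map of accessible chromatin of mouse blood cells. The members were the 10 genes Jun, Junb, Jund, Fos, Fosb, Fosl1, Fosl2, Batf, Batf3 and Atf3. Their peaks were those of the annotated master peak-list that HOMER had assigned to a member as the gene with the nearest promoter. These were 105 of 84243 peaks (0.125%). The map was made by ATAC-seq, in which a transposase inserts adapters into exposed DNA, on cells of wild-type C57BL/6 mice aged 8 to 12 weeks for which no treatment is named. The 12 samples were 2 replicates of each of 6 cell types sorted by flow cytometry. Hematopoietic stem cells (HSCs), megakaryocyte progenitors (MkPs), erythroid progenitors (EPs), granulocyte/macrophages (GMs) and B cells came from bone marrow, and T cells from thymus. The authors merged the peaks of all cell types into 1 list, which does not name the cell type a peak was called in and holds 0 columns of values per sample. Levels by cell type, replicate error and depth are therefore unknown, the labelled cell types could not be checked against markers, and the values below are counts, shares and positions without a test, and the main shares are given beside those of all peaks or genes.

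AP-1 factors are dimers of basic leucine zipper proteins. JUN proteins pair with themselves or with FOS proteins, FOS proteins bind DNA only with a partner, and BATF proteins and ATF3 form dimers with JUN proteins. Many JUN:FOS dimers bind the sequence TGACTCA, known as the TRE, and dimers with ATF or CREB proteins bind TGACGTCA, the CRE. Jun, Fos, Fosb, Junb and Atf3 are immediate early genes, transcribed within minutes of growth factor, cytokine or stress signals, and in blood cells AP-1 acts in myeloid differentiation and in lymphocyte activation, where BATF proteins bind together with IRF factors.

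Promoter peaks, those centred no more than 500 bp from a transcription start site (TSS), are shown first because their sequence carried control sites known from these genes. Each sequence below is 300 bases of the GRCm38 (mm10) genome from RefSeq, inside the promoter peak of the gene, upstream of its TSS and on the strand of the gene. Capitals in the Jun sequence mark TGACATCA, a variant AP-1 site through which JUN is known to act on its own gene. Capitals in the Fos and Fosb sequences mark a CArG box, the core of the serum response element that serum response factor (SRF) binds.
Jun, chr4:95052223-95052522, minus strand: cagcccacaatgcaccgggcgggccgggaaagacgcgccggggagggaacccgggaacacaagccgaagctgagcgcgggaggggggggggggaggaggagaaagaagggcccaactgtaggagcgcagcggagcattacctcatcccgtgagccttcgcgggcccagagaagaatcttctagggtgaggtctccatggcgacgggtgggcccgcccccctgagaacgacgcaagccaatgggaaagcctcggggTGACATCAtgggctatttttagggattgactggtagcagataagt
Fos, chr12:85473559-85473858, plus strand: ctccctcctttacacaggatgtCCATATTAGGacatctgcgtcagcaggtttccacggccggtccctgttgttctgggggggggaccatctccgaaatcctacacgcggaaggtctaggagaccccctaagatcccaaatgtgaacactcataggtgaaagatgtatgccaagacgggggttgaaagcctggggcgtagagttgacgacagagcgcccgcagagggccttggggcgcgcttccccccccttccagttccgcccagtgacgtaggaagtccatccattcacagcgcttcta
Fosb, chr7:19310119-19310418, minus strand: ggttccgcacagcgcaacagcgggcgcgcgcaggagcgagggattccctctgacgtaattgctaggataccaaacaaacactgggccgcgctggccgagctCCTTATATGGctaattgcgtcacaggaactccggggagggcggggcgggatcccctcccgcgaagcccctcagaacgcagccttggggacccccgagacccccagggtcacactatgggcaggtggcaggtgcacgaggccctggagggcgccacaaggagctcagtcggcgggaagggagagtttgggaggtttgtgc
The near end of the marked site was 38 bp from the RefSeq Select TSS, of which each gene has 1, in Jun, 300 bp in Fos and 263 bp in Fosb. For Fosb this TSS is chr7:19310045, while the sequence shown lies upstream of the outermost RefSeq start, chr7:19310118.

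Of the 97 distal peaks, which are the remaining peaks of each gene, 14 held the TRE (14.4%, against 11.8% of all non-promoter peaks). These belonged to Jun, Fosb, Fosl2, Batf and Atf3. For each of these genes the TRE nearest to the centre of a peak is shown, on the plus strand of the genome, with the TRE or its reverse complement TGAGTCA in capitals and 17 bases on either side.
Jun, 225962 bp upstream of the TSS, chr4:95278239-95278279: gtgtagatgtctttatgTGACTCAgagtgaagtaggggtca
Fosb, 11621 bp upstream, chr7:19321655-19321695: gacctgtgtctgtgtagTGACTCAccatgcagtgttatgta
Fosl2, 59096 bp upstream, chr5:32077334-32077374: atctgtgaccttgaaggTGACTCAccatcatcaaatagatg
Batf, 25740 bp upstream, chr12:85661145-85661185: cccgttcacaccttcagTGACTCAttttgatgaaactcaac
Atf3, 533 bp downstream, chr1:191182768-191182808: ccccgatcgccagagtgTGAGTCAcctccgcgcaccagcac
In all but the Jun site the TRE had a purine before it and a pyrimidine after it, the flanks of the palindrome that AP-1 is known to prefer. Over all 14 TRE sites in distal peaks of the members, 7 had both flanks, against 22.4% of all TRE sites in non-promoter peaks.

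The 105 peaks were divided into 8 promoter and 97 distal peaks (Jun 1 and 34, Junb 1 and 4, Jund 0 and 4, Fos 1 and 15, Fosb 1 and 10, Fosl1 1 and 1, Fosl2 0 and 11, Batf 1 and 9, Batf3 1 and 5, Atf3 1 and 4). Promoter peaks made up 7.62% of the members' peaks and 15.6% of all peaks. The JUN genes had 44 peaks (41.9%), the FOS genes 40 (38.1%), the BATF genes 16 (15.2%) and Atf3 5 (4.76%). Jun alone had 33.3% of the peaks, so the positions of the distal peaks are also given for the 63 distal peaks of the other members.

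**Figure D1:**
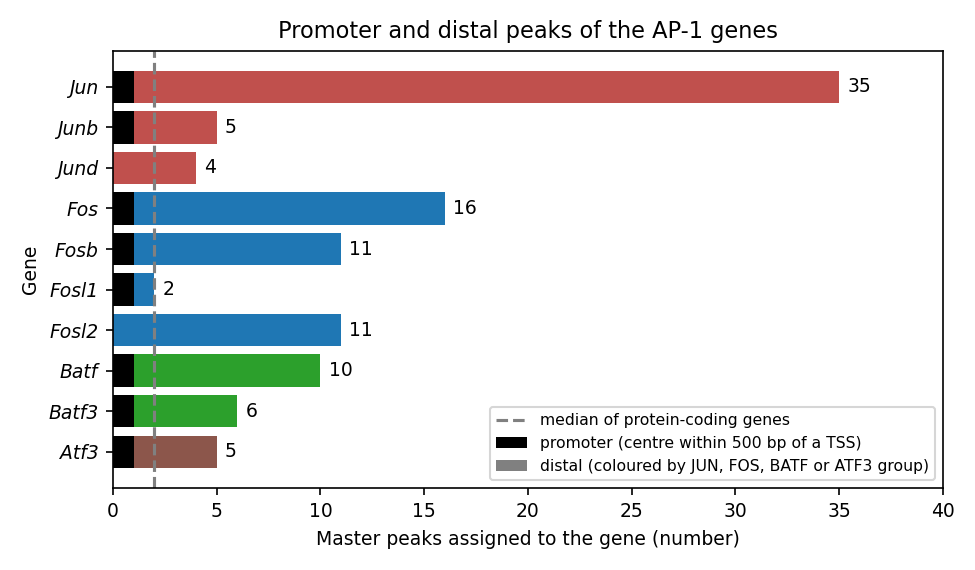
Number of master peaks assigned to each AP-1 gene, with promoter peaks in black and distal peaks in the colour of the JUN, FOS, BATF or ATF3 group. The dashed line is the median of 2 peaks over protein-coding genes, and 9 of the 10 bars pass it, with Jun at 35.

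The median member had 8 peaks and the median protein-coding gene of RefSeq had 2, counted over 20963 genes of which 16217 had a peak. The 90th percentile of these genes was 8 peaks. Jun, with 35 peaks, was exceeded by 27 genes (0.129%), Fos, with 16, by 2.37%, Fosb and Fosl2, with 11 each, by 5.51%, and Batf, with 10, by 6.70%. Batf3 (6 peaks), Atf3 and Junb (5 each) and Jund (4) lay between the median and the 90th percentile. Fosl1, with 2 peaks, stood at the median.

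A promoter peak was present in 8 of the 10 members and in 54.9% of protein-coding genes. Each of the 8 genes had 1. The peak centres lay upstream of the TSS in Jun (139 bp), Fos (82 bp), Fosb (272 bp), Fosl1 (82 bp) and Atf3 (99 bp). They lay downstream in Junb (30 bp), Batf (177 bp, in the 5′ untranslated region, UTR) and Batf3 (29 bp). Their median GC content was 63.8%, and that of all promoter peaks was 63.3%. At the 500 bp limit, the members just inside were Batf at 177 bp and Fosb at 272 bp, and those just outside were a second Atf3 peak at 533 bp, Fosl2 at 702 bp, a second Fosl1 peak at 909 bp and a second Batf3 peak at 937 bp. Jund and Fosl2 had no peak within the limit, and both had peaks within 2 kb of the TSS. The authors reported more promoter peaks in each single cell type than the merged and filtered list holds. A promoter peak called in a cell type may therefore be absent from the list, and which ones are absent was not tested.

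Jun, which encodes c-Jun, lay on the minus strand of chromosome 4 and had the longest row of peaks among the members. Its promoter peak (chr4:95052112-95052610) was followed by a peak 1099 bp upstream (chr4:95053072-95053570) and by a peak in its only exon, centred 1465 bp downstream. Of its 34 distal peaks, 32 were upstream and 2 downstream, and 33 were intergenic. They reached from 26.1 kb downstream to 251.3 kb upstream, where the farthest was chr4:95303279-95303777, and 24 were more than 100 kb away. The nearest upstream protein-coding neighbour was Fggy, whose TSS was 505.3 kb from that of Jun. Peaks were assigned to the nearest TSS, so the row of Jun peaks could reach no farther than midway to Fggy. Its upstream end lay close to that limit. Distal peaks whose centres were at most 12.5 kb from the next were joined into clusters, which gave 8 for Jun. The largest, chr4:95153717-95216316, held 16 peaks in 62.1 kb, 101.7 to 163.8 kb upstream of Jun. A cluster of at least 16 peaks was found for 46 of the 20963 genes (0.219%). This share, like those given below for clusters of other members, takes in genes without a peak and genes with little space around them. In peaks per length, also given below, 16.2% of genes exceeded Jun.

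The upstream side of Jun also holds Junos, a long non-coding RNA (lncRNA) gene transcribed away from Jun on the opposite strand. RefSeq placed its start 95 bp upstream of the Jun TSS, inside the Jun promoter peak, and gave it a length of 116.7 kb (chr4:95052317-95169036). Of the distal Jun peaks, 15 lay within Junos, although HOMER classed them as intergenic, and 3 lay within the lncRNA gene Gm12708, 1 of them also in Gm32240. The list does not say which of these genes a peak acts on. GC content in the Jun peaks ranged from 37.9%, at the peak 103183 bp upstream, to 73.1%, at the peak 109225 bp upstream. The latter was the only distal Jun peak that HOMER labelled as a CpG island. Both peaks belong to the cluster of 16.

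Junb, which encodes a JUN protein that often restrains c-Jun and limits myeloid growth, is a short gene on chromosome 8 with its 5 peaks in 5.6 kb. The promoter peak (chr8:84978469-84978967) covered the TSS. The nearest distal peak, 1011 bp downstream (chr8:84977488-84977986), was in its only exon, and others lay 1227 bp upstream and 2122 bp downstream, at the transcription termination site. The farthest, 4343 bp downstream (chr8:84974156-84974654), was annotated to the 3′ UTR of the neighbour Prdx2, a peroxiredoxin gene. Jund, the JUN gene that is expressed broadly in unstimulated cells, also lies on chromosome 8 and had 4 peaks, centred 2230 and 1101 bp upstream and 1120 and 2915 bp downstream. The nearest was chr8:70696389-70696887, on a CpG island, and the farthest, chr8:70700405-70700903, was at the transcription termination site. The peak at 1120 bp (chr8:70698610-70699108) was annotated to the 5′ UTR.

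Fos, which encodes c-Fos, had its promoter peak at chr12:85473559-85474057 and 15 distal peaks, all intergenic. Of these, 9 formed a cluster 1.6 to 45.9 kb upstream and 5 formed another 12.2 to 25.3 kb downstream, while the last stood alone at 58.9 kb downstream. The nearest was chr12:85472049-85472547 and the farthest chr12:85532560-85533058. The Fos gene itself, 3.38 kb long, held no peak beyond that at its start. A cluster of at least 9 peaks was found for 2.08% of genes. Fosb, whose protein can be made in a short form that lacks the activation domain, had a promoter peak at chr7:19310068-19310566 and 10 distal peaks that formed 1 cluster of 26.5 kb around the gene. A cluster of at least 10 peaks was found for 1.45% of genes. The nearest distal peak, 1381 bp downstream (chr7:19308415-19308913), was intronic, 1 lay in the 3′ UTR, and the farthest was 17213 bp upstream (chr7:19327009-19327507).

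Fosl1, which encodes Fra-1, had the fewest peaks of the members. These were the promoter peak (chr19:5447367-5447865) and a peak in the first intron, 909 bp downstream (chr19:5448358-5448856). Fosl2, which encodes Fra-2, had 11 distal peaks, all of them upstream. The nearest was centred at 702 bp (chr5:32135521-32136019) and the next at 1422 bp. At the other end, 5 peaks from 59.1 to 217.7 kb upstream (the farthest chr5:31918485-31918983) lay in introns of Babam2, a gene for a subunit of the BRCA1-A complex, which is on the same strand with its TSS 438.4 kb upstream of that of Fosl2. HOMER assigned them by the nearest TSS, so the row of Fosl2 peaks could reach no farther than midway to the Babam2 TSS. These 5 were the only intronic peaks among the distal Fosl2 peaks.

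Batf, required for the IL-17-producing helper T cells and for class switching in B cells, had its promoter peak at chr12:85686648-85687146. No other Batf peak lay within 10 kb. A cluster of 7 stood 12.6 to 39.2 kb upstream, with the nearest at chr12:85673870-85674368 and the farthest at chr12:85647310-85647808, and 2 peaks lay downstream, 1 in an intron. A cluster of at least 7 peaks was found for 4.15% of genes. Batf3, required for the CD8α+ dendritic cells, had its promoter peak at chr1:191098194-191098692 and 5 distal peaks, from 937 bp upstream (chr1:191097228-191097726) to 27690 bp downstream (chr1:191125855-191126353). The peak 13265 bp upstream was annotated to the termination site of the neighbour Nsl1, a kinetochore gene. Atf3, a stress-induced gene whose protein often acts as a repressor, had its promoter peak at chr1:191183183-191183681, a second peak in the first intron (chr1:191182551-191183049), and 3 intergenic peaks 10661, 14778 and 18051 bp upstream, the farthest at chr1:191201135-191201633.

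**Figure D2:**
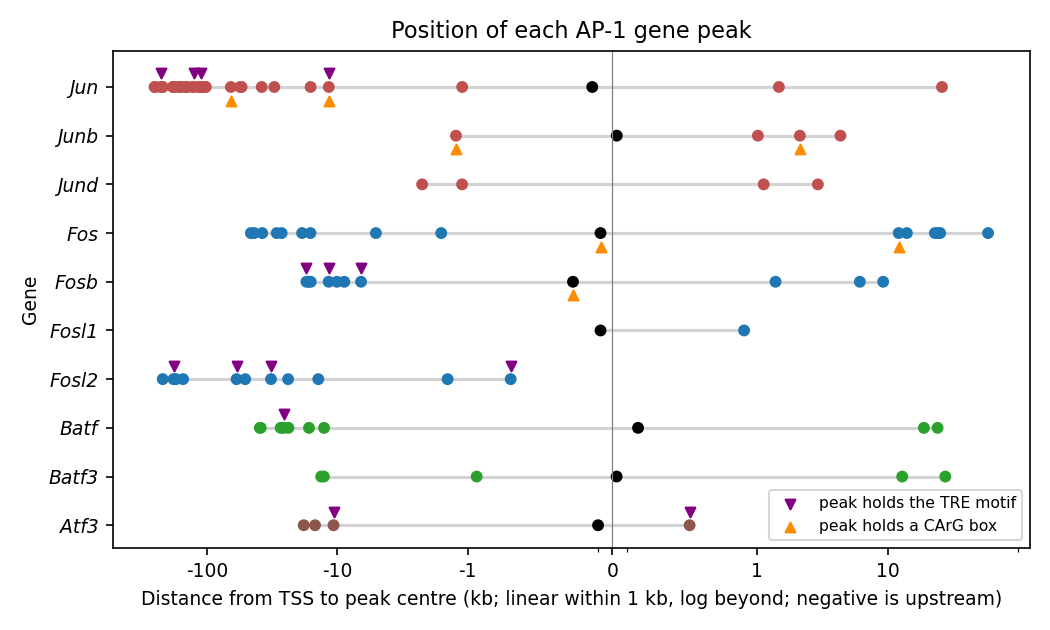
Distance from the TSS to the centre of each peak of the 10 genes, in kb, linear within 1 kb and on a log scale beyond, with promoter peaks in black and distal peaks coloured by group. Purple triangles mark peaks that hold the TRE and orange triangles those that hold a CArG box, and 75 of the 97 distal points fall upstream.

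Members shared stretches of the genome in 2 places. On chromosome 12, Fos and Batf lie on the same strand with TSSs 212.8 kb apart, and Jdp2, whose protein is an AP-1 repressor, lies between them. From the first to the last peak of Fos and Batf (chr12:85427753-85711123, 283.4 kb) there were 38 peaks, of which 16 were assigned to Fos, 12 to Jdp2, 10 to Batf and 0 to any other gene. On chromosome 1, the TSSs of Batf3 and Atf3 were 84.9 kb apart, and 15 peaks lay across 116.7 kb, 6 of Batf3, 5 of Atf3 and 4 of Fam71a, which lies between them. Peaks between these genes were assigned by distance alone.

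**Figure D3:**
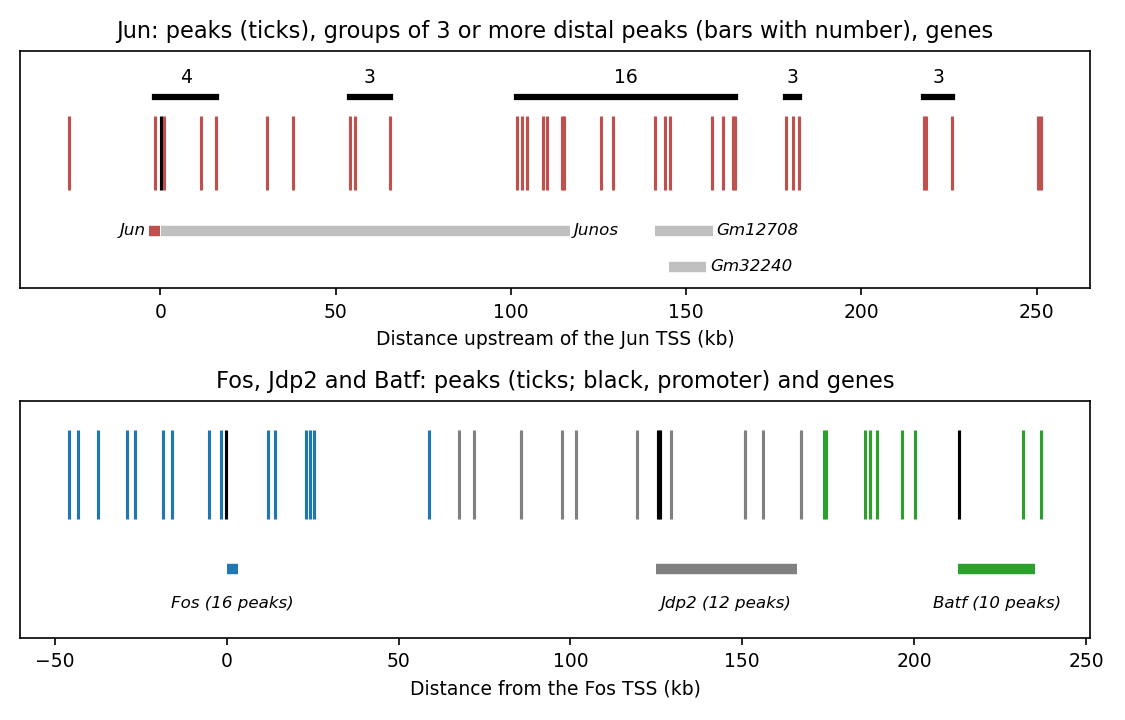
Peaks as ticks at the Jun locus (top, kb upstream of the Jun TSS) and from Fos to Batf (bottom, kb from the Fos TSS), with genes as bars and promoter peaks in black. The cluster of 16 Jun peaks extends past the end of Junos, and the 38 peaks below are coloured by Fos (16), Jdp2 (12) and Batf (10).

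To take the space around each gene into account, peaks were also counted per length. For each gene the stretch nearer to its RefSeq TSS than to that of any other protein-coding gene was measured, together with the peaks in it. The median member had a stretch of 62.1 kb with 13.0 peaks per 100 kb, and the median of all protein-coding genes was 49.1 kb with 4.46 peaks per 100 kb. On this measure the order of the members changed. Junb (49.0 peaks per 100 kb in 10.2 kb) and Fosb (40.7 in 27.0 kb) came first, exceeded by 0.343% and 0.587% of genes, and Jund followed with 20.8 in 14.4 kb. Fos (14.3), Batf (13.6), Fosl1 (12.3), Jun (12.1), Batf3 (11.8) and Atf3 (11.7) lay close together. Jun had its 35 peaks in a stretch of 289.2 kb, and 16.2% of genes were denser. Fosl2, with 4.12 peaks per 100 kb in 267.3 kb, lay close to the median of all genes, below it with these 11 peaks. By RefSeq Select TSSs alone, Fosl2 had 12 peaks. Atf3 had 9 peaks in its stretch, 4 of them assigned by HOMER to the non-coding RNA gene D730003I15Rik upstream, and Jund had 3, with its peak at the termination site nearer to the TSS of Iqcn. Within 100 kb of the TSS on either side, whichever gene they were assigned to, the median member had 23.5 peaks and the median gene 12.

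**Figure D4:**
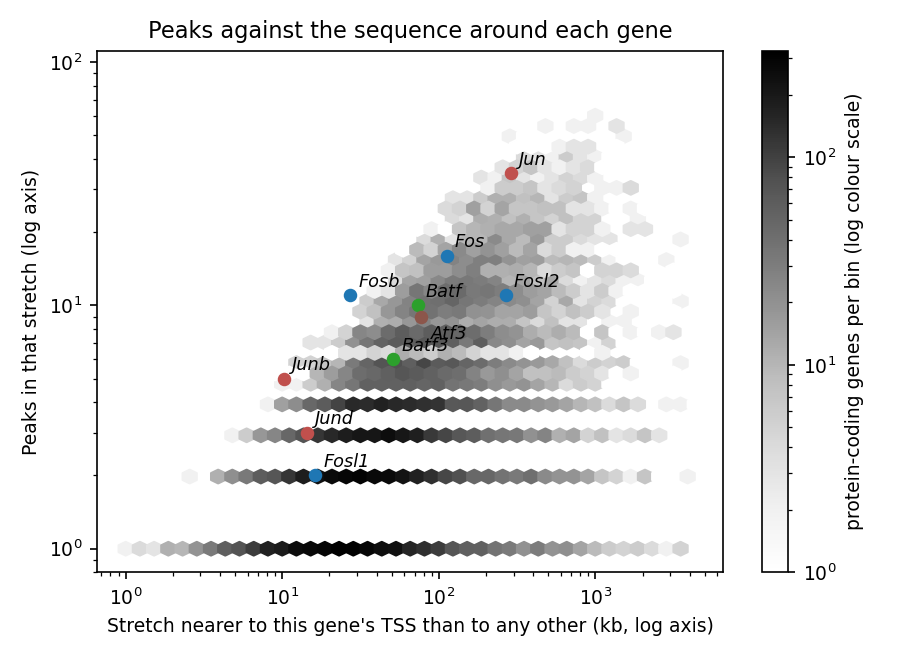
Peaks against the length of the stretch nearest to each gene's TSS, both on log axes, for 16588 protein-coding genes in grey bins and the AP-1 genes as labelled points. The 4344 genes without a peak and 31 with a stretch under 1 kb are not drawn, and Junb and Fosb lie on the upper left edge of the distribution while Fosl2 lies inside it.

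The 97 distal peaks were mostly upstream and intergenic. Upstream peaks numbered 75 (77.3%), against 41.7% of all non-promoter peaks, and without Jun the share was 68.3%. Intergenic peaks numbered 78 (80.4% against 44.6%) and intronic peaks 9 (9.28% against 48.0%), and without Jun these shares were 71.4% and 14.3%. Of the 9 intronic peaks, 5 were the Fosl2 peaks in introns of the neighbour Babam2, which is not a member. The members are short genes, with a median length of 7.83 kb against 17.7 kb for protein-coding genes. The part of gene length in these shares was not tested. The remaining distal peaks were 3 at termination sites, 2 in exons, 2 in 3′ UTRs, 1 in a 5′ UTR and 2 in HOMER's own, wider promoter class (Fosl2 at 702 bp and Batf3 at 937 bp). Of the 78 intergenic peaks, 24 (30.8%) lay inside lncRNA genes of RefSeq, among them 5 of Fos, against 14.6% of all intergenic non-promoter peaks. Without Jun the share was 13.3%, below that of all peaks. The median distance from the TSS was 25283 bp and that of all non-promoter peaks was 22261 bp. Without Jun it was 15953 bp. Within 10 kb there were 22 distal peaks (22.7% against 28.9%) and from 10 to 100 kb 47 (48.5% against 58.1%). More than 100 kb away there were 28 (28.9% against 13.0%), of which 24 belonged to Jun and 4 to Fosl2. The order against all peaks rested on Jun. Without it, 31.7% of distal peaks lay within 10 kb, 61.9% from 10 to 100 kb and 6.35% farther away, so that the members then had the larger share in the nearest class and the smaller in the farthest.

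Clusters were common among these peaks. The 97 distal peaks formed 27 clusters, 14 of which had at least 3 peaks and together held 78 peaks, and 7 peaks stood alone. A cluster of at least 3 peaks was found for 23.7% of protein-coding genes. Every member other than Fosl1 had one. Repeats held 9 of the distal peaks (9.28%, against 17.9% of non-promoter peaks), with 6 of Jun, 2 of Batf and 1 of Fos, and without Jun the share was 4.76%. These were 4 long terminal repeats (3 of Jun), 2 SINEs, 2 LINEs and 1 DNA transposon. HOMER labelled 11 distal peaks as CpG islands (11.3% against 1.98%, and 15.9% without Jun). They were 3 of Fos, 2 of Fosb and 1 each of Jun, Jund, Fosl1, Fosl2, Batf3 and Atf3. Each peak carries a single detailed label, from which repeats were also read. A peak labelled as exon or promoter may therefore also lie on an island. The island label was on 0 of the 8 promoter peaks and on 3.44% of all promoter peaks. The median GC content of distal peaks was 49.9% for the members and 47.7% overall.

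To ask whether AP-1 genes carry AP-1 sites in their own peaks, the peak sequences were searched for exact matches on both strands. The TRE, TGACTCA, was found in 14 of the 97 distal peaks (14.4%, 95% Wilson interval 8.80 to 22.8%, for counting error alone) and in 11.8% of all non-promoter peaks, a share inside that interval. Each of the 14 peaks held 1 site. Jun and Fosl2 had 4 such peaks each, Fosb 3, Atf3 2 and Batf 1. Among promoter peaks it was in 0 of 8, which allows a share of up to 37.5% if 3 counts are taken as the limit of a count of 0, and in 4.97% of all. The CRE, TGACGTCA, was in 1 of the 97 distal peaks (1.03%) against 0.701% of all non-promoter peaks, and in 0 of 8 promoter peaks against 3.63% of all. Partial forms, such as tgacgta in the Fos and Fosb promoter sequences shown above, were not counted and were not searched for in promoters. The median distance of a TRE from its peak centre was 94 bp in the members and 82 bp over all non-promoter peaks, and 3 of the 14 were within 50 bp, against 35.2%.

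The peaks with a TRE were spread over the distances. In Jun they lay 11590 bp (chr4:95063563-95064061), 110291 bp (chr4:95162264-95162762), 125837 bp (chr4:95177810-95178308) and 225962 bp (chr4:95277935-95278433) upstream. In Fosb all were upstream, at 6557 bp (chr7:19316353-19316851), 11621 bp (chr7:19321417-19321915) and 17213 bp. In Fosl2 they lay at 702 bp, 32154 bp (chr5:32104069-32104567), 59096 bp (chr5:32077127-32077625) and 179956 bp (chr5:31956267-31956765) upstream, the last 2 of these in Babam2 introns. Batf had its TRE 25740 bp upstream (chr12:85660731-85661229), and Atf3 had 1 in the first intron and another 10661 bp upstream (chr1:191193745-191194243). The 15 distal peaks of Fos held none. The only exact CRE match among all 105 peaks was in the Jund peak of the 5′ UTR. It is shown with its neighbouring bases, with the CRE in capitals.
Jund, 1120 bp downstream, chr8:70698725-70698752, plus strand: cccacccccaTGACGTCAacccacaatg
The variant TGACATCA was in 5 distal peaks (5.15% against 2.96%), 3 of Fosl2 and 1 each of Fos and Batf. In Fosl2, the peaks 32154 and 179956 bp upstream held both TGACATCA and the TRE.

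The CArG box, CC and GG around 6 bases of A or T, was in 2 of the 8 promoter peaks (25.0%, Wilson interval 7.15 to 59.1%), those of Fos and Fosb shown above, and in 1.48% of all promoter peaks. It was in 5 of the 97 distal peaks (5.15%, 2.22 to 11.5%) against 2.47% of all non-promoter peaks. The share of all non-promoter peaks lay inside that interval. Those 5 sites belonged to Jun, Junb and Fos. They are shown because SRF is a known route from serum and growth factor signals to immediate early genes such as Fos. Binding of SRF to these sites was not tested. The sites are on the plus strand of the genome with the CArG box in capitals.
Jun, peak 11590 bp upstream, chr4:95063733-95063776: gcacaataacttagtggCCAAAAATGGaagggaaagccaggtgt
Jun, peak 65379 bp upstream, chr4:95117386-95117429: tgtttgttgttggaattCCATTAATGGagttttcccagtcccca
Junb, peak 1227 bp upstream, chr8:84980142-84980185: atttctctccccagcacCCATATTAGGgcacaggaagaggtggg
Junb, peak 2122 bp downstream, chr8:84976607-84976650: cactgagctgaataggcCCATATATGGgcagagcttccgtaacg
Fos, peak 12156 bp downstream, chr12:85486097-85486140: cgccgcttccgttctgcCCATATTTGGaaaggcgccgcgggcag
The Junb site downstream of the gene was 2 bp from the centre of its peak. The letters of the Junb site upstream of the gene, CCATATTAGG, were the same as those of the Fos promoter site. The Jun peak 11590 bp upstream held both a CArG box and a TRE.

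Motifs of factors that act in blood lineages were searched in the same way. Among distal peaks of the members, the RUNX motif TGTGGTT was in 23 (23.7%, Wilson interval 16.4 to 33.1%, against 18.0% of all non-promoter peaks) and the PU.1 motif GAGGAAGT in 10 (10.3% against 10.2%). The GATA motif AGATAA was in 15 (15.5%, interval 9.60 to 24.0%, against 26.9%), and the E-box CAGCTG in 16 (16.5%, interval 10.4 to 25.1%, against 30.4%). The consensus of CTCF, the factor that marks many domain boundaries, was in 2 (2.06%, interval 0.567 to 7.21%, against 8.74%), both of Fos. Over the 97 distal peaks, the share of all peaks lay above the interval for GATA, the E-box and CTCF, and inside it for the others. Among the 63 distal peaks without Jun, RUNX was in 30.2% and TGACATCA in 7.94%, both farther above all non-promoter peaks (18.0% and 2.96%). GATA (12.7%), the E-box (17.5%) and CTCF (3.17%) stayed below them. The TRE was then in 15.9%, the CRE in 1.59%, the CArG box in 4.76% and PU.1 in 9.52%. No interval was computed without Jun. RUNX matches were in 5 of the 15 distal peaks of Fos, 4 each of Jun, Fosb and Fosl2, 3 of the 5 of Batf3, 2 of Batf and 1 of Atf3. GATA matches were in 7 of the 34 distal peaks of Jun and in 2 or fewer for any other member. Peaks of 1 gene share their surroundings and are not independent, so the intervals are no test.

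**Figure D5:**
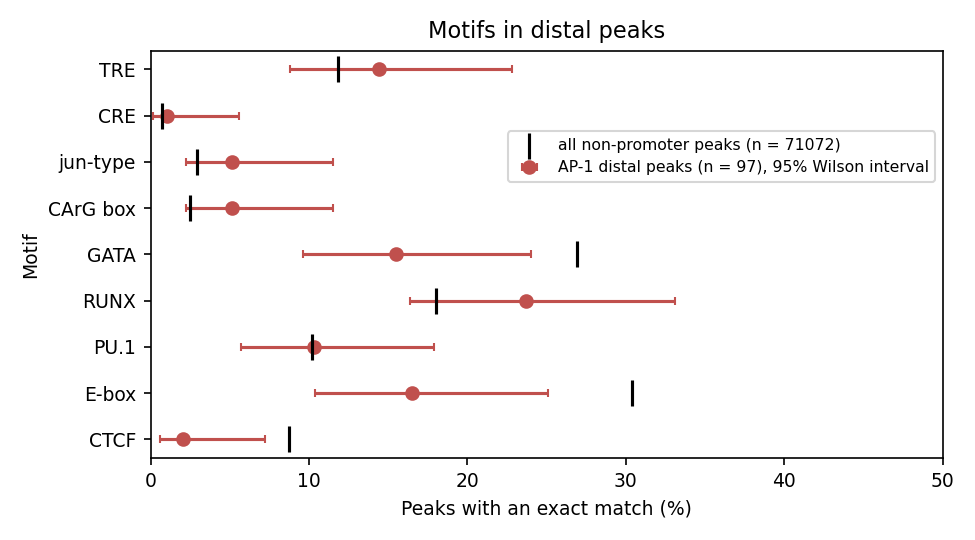
Percent of distal peaks with at least 1 exact match, for the 97 peaks of AP-1 genes (red points with 95% Wilson intervals) and for all 71072 non-promoter peaks (black marks), where the jun-type motif is TGACATCA. The black marks of the GATA, E-box and CTCF motifs lie right of the red intervals, and that of the TRE lies inside its interval.

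The RefSeq promoter table, with 250 bases before and 50 after each TSS of GRCm38, matched 9 of the 10 members. In these windows TGACATCA was found in Jun and in 3.62% of 32851 windows, and the GATA motif in Jun and Batf (11.2% of windows). The RUNX motif was found in Batf (5.27%), and the E-box in Junb, Jund and Fos (16.3%). The TRE and the CRE had no exact match in the 9 (5.20% and 1.79% of windows). Nor did the CArG box (1.63%), as the Fos and Fosb sites lie farther upstream than the window reaches.

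Other genes of the AP-1 pathway gave a scale for these counts. The 5 relatives and partners of AP-1 (Jdp2, Batf2, Atf2, Atf4 and Atf7) had a median of 2 peaks, and all of them had a promoter peak. Jdp2, with 12 peaks of which 2 were promoter peaks, was the only relative with more than 2. The 11 kinases and factors upstream of AP-1 that are given here had a median of 6.0 peaks, and 10 of them a promoter peak. Among these, the MAP kinases Mapk3 (5 peaks), Mapk8 (6), Mapk9 (6) and Mapk14 (4) had between 4 and 6, Creb1 and Elk3 had 8 each, and Srf, Elk1 and Map2k7 had 1 each, at the promoter. Elk4, an SRF partner, had 6 peaks and none at the promoter.

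Other immediate early genes had a median of 11.5 peaks, above that of the members. Egr3 and Btg2, a growth-arrest gene, had 14 peaks each, as did Ier2. Egr2 had 12, Dusp1, a phosphatase of MAP kinases, 11, and Nr4a1, an orphan nuclear receptor, 9. Zfp36, whose protein destabilizes cytokine mRNAs, had 5 and Ier3 had 2. A promoter peak was found in 7 of these 8 genes, all but Egr3. Per length their median was 13.4 peaks per 100 kb, beside 13.0 for the AP-1 genes, 9.26 for the relatives and 8.77 for the upstream kinases and factors. Distal peaks made up 91.4% of their peaks and 92.4% of those of the AP-1 genes, 68.4% for the relatives and 78.8% for the upstream list. The C/EBP genes, basic leucine zipper factors of myeloid cells, had a median of 5.0 peaks and 10.8 per 100 kb, and the NF-kB genes 5.0 and 7.46, with Nfkb1 at 26 peaks. All 5 C/EBP genes and 4 of the 5 NF-kB genes had a promoter peak. Of the 10 AP-1 genes, Jun and Fos lay above the median of the other immediate early genes and the other 8 below it.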

How the data were processed

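ATAC-seq was done on 12 samples, with 2 replicates for each of the 6 sorted mouse cell types. The authors ran the ENCODE ATAC-seq pipeline on mm10, merged the reproducible peaks of each cell type, kept non-overlapping peaks with chromVAR and annotated them with HOMER 4.10.2. As deposited by the authors, peak positions and distances to the TSS are in bp with no normalization, and the peak score is 0 in every peak. Because the list was merged, a peak seen in a single cell type counts like a peak seen in all. Depth per sample is unknown, so its effect on precision cannot be given.

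Peaks were taken by gene name, and promoter peaks by the deposited distance. Genes, TSSs and sequences came from RefSeq (GRCm38.p6, release 108), with 1 RefSeq Select TSS for each of 20963 protein-coding genes. Clusters, peaks per length and exact motif matches over all 499 bp of a peak were computed with Python 3.11.15, numpy 2.4.6, pandas 2.3.3 and matplotlib 3.10.9. In simulated sequences, the search found 200 of 200 planted sites for each of 9 motifs. The members and gene lists were chosen with earlier results of these data known, and no list was tested. A gene of the list of upstream kinases and factors is not reported here and was left out of the values of that list. All AP-1 genes were named, genes of the other lists and neighbours could be named, and coordinates were given for promoter peaks, nearest and farthest distal peaks and distal peaks with a TRE or CRE. The Jun clusters, Junos and the distal CArG boxes were singled out after their values were seen, and the shares without Jun were added then. Alternatives concerned the promoter limit, the assignment of peaks to genes, the motif match and the cluster distance.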

Additional observations from a re-analysis of the deposited data

How the results depend on the processing

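Of 19 alternatives over 7 results, 10 stayed within 1.5 times the reported count. With a promoter limit of 100 bp, 5 peaks in 5 genes were promoter peaks instead of 8 in 8. Under the basal plus extension rule, by which a peak can belong to several genes, the members had 172 peaks instead of 105, with Atf3 at 20 instead of 5. Within 50 kb of the TSS there were 136 peaks, which stayed within 1.5 times, but only 71 were among the 105, and Jun had 9 instead of 35. The TRE was in 8 distal peaks when the central 200 bp were searched (8.25%, against 6.73% of all) and in 74 with 1 mismatch allowed (76.3% against 79.5%). For the CRE these counts were 0 and 20 (20.6% against 13.0%). There were 49 clusters at a joining distance of 5000 bp and 16 at 25000 bp. Any overlap of the peak with the RefSeq Select TSS, in place of the 500 bp limit, gave 7 genes and lost Fosb. The outermost RefSeq start of Fosb does lie inside its promoter peak.

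No paired analysis was possible because the list pools all samples and holds no value per sample, and for the same reason no replicate was left out. A stricter peak score was not run, as the score is 0 in every peak. With pooled and filtered peaks of unknown depth, a missing peak does not show closed chromatin in any cell type.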
